A study of Homo sapiens with 4 samples.

Results

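HMOX1, GCLM and AKR1B10 gave more signal after SOX2 knockdown in LN229 cells, by 2.16-fold to 4.69-fold between the means of 2 arrays per group. GCLM fell below 2-fold without mock replicate 1, and the log2 change of AKR1B10 was 0.30 in place of 1.21 under another background correction. LOC441282 was not above background in the mock arrays, and was at least 4.59-fold higher by a limit chosen after the values were seen. Its change was smaller than this under other processing, with a log2 change of 1.34 under another background correction and 1.16 with a raised lower limit. The other 6 genes of the set (NQO1, GCLC, TXNRD1, AKR1C1, AKR1C2 and AKR1C3) were higher by 1.11-fold to 1.35-fold on their brightest probes. The set holds 10 of the 20481 gene symbols on the array, which were chosen by their response in these same arrays: targets of the transcription factor NRF2 and members of the aldo-keto reductase family. LOC441282 is the array's older symbol for AKR1B15. A probe belonged to the set where a member's symbol stood in its annotation, which gave 12 of the 33096 probes on the array. Because the contrast of knockdown with mock chose the genes, their values are given as a description, with no test.

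LN229 is an established human glioblastoma cell line, grown here in DMEM. SOX2 is an HMG-box transcription factor of stem cells, and it was lowered with small interfering RNA (siRNA). The mock arm received a control siRNA with no target. Each group had 2 arrays, SOX2 knockdown replicates 1 and 2 and mock replicates 1 and 2, and per the study's methods each came from its own transfection. The knockdown was transient and was made in 1 cell line, and which siRNA against SOX2 was used for the arrays is not given in the sources used here. RNA came from whole cultures, so a higher signal in every cell and a higher signal in some of the cells cannot be told apart. No more than 2 arrays per group stand behind any value, and this sets its precision.

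NRF2, encoded by NFE2L2, is held in the cytoplasm by KEAP1, which hands it to a ubiquitin ligase for destruction. Electrophiles and oxidants block this step, and NRF2 then pairs with a small MAF protein at antioxidant response elements (ARE) near its target genes. The targets include enzymes of glutathione and thioredoxin metabolism, NADPH supply, haem breakdown and the disposal of quinones and carbonyls. BACH1 competes for the same sites as a repressor, and HMOX1 is a well-known target of it. Aldo-keto reductases use NADPH to reduce aldehydes and ketones, and several of the AKR1B and AKR1C enzymes are known NRF2 targets.

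The RefSeq promoter table (build GRCh38.p14) matched 7 of the 10 members. It was searched over the 250 bases before each start site for the ARE core TGACNNNGC on both strands. GCLM had 1 match, on the strand opposite to the gene, at 34 to 26 bases before the start. TXNRD1 has 2 start sites in the table and had 1 match before each, at 99 to 91 bases on the strand of the gene and at 102 to 94 bases on the other. These 3 windows are shown because they hold the recognition core of the factor that names the set. The core is in capitals, and each sequence runs 5′ to 3′ along the gene.

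GCLM, chr1:93909431-93909680, minus strand: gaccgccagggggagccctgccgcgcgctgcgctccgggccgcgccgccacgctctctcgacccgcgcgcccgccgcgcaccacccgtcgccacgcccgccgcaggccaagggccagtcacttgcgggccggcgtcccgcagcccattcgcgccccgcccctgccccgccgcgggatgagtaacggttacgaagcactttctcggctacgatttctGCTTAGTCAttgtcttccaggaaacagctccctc
TXNRD1, first start site, chr12:104215529-104215778, plus strand: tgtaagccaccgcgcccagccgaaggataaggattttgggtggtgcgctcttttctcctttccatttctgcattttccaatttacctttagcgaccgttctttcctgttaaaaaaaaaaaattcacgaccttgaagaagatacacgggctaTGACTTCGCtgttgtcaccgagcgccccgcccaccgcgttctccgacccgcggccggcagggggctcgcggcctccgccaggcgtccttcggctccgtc
TXNRD1, second start site, chr12:104286782-104287031, plus strand: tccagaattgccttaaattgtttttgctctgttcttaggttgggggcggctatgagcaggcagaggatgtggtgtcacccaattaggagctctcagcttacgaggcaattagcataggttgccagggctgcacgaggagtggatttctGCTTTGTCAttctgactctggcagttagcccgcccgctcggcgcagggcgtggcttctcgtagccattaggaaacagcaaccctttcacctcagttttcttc

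Of the 35116 promoter windows of the same length in the table, 10.9% held the core, so a match is a description and not a binding site. The windows of NQO1, GCLC, AKR1C1, AKR1C2 and AKR1C3 had no match within these 250 bases. None of the 3 matches overlapped the related AP-1 motif TGANTCA, which no member window held and which 6.57% of all windows held. The SOX core ATTGTT, also searched on both strands, lay in the second TXNRD1 window and in both windows of AKR1C3, and in 8.98% of all windows.

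The AKR1C genes are near copies that lie together on chromosome 10, and the RefSeq windows of AKR1C1 and AKR1C2 were 99.6% identical over 246 aligned bases. The 80 bases before each start are shown as an example of how alike these neighbours are. They lie outside the transcript, so they say nothing about what a probe binds. The 1 base that differed is in capitals, and the AKR1C2 window continues 4 bases further.

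AKR1C1, chr10:4963335-4963414, plus strand: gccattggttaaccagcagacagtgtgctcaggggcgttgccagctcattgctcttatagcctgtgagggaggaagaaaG
AKR1C2, chr10:5003858-5003937, minus strand: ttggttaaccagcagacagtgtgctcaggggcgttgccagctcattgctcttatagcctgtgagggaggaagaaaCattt

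The windows of AKR1C3 matched those of AKR1C1 and AKR1C2 at 53.7% to 58.1% of the bases without gaps. AKR1B10 and AKR1B15 share chromosome 7. Each of the 12 probes carried 1 symbol, so no probe was annotated to a pair of members. The AKR1C1 probe and the brighter AKR1C2 probe nevertheless shared 1 Celera gene ID, hCG2017792. Cross-hybridisation between AKR1C or between AKR1B transcripts was not tested, since the probe sequences are not analysed here.

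Values below are the scanner's normalized signal divided by the 75th percentile of the same array, so 1 means a probe as bright as that percentile. That percentile was 6.06 and 6.88 for mock replicates 1 and 2, and 6.74 and 5.96 for SOX2 knockdown replicates 1 and 2. Probes had to reach a signal-to-noise ratio (S/N) above 3 on each array of either group, which kept 21256 probes, 10 of them member probes. SOX2 itself was 0.467 and 0.701 in mock and 0.209 and 0.149 after knockdown, a ratio of 0.307. The labels' treatment field names the colon line SW620, whereas the other fields name LN229. Of 10 glioma markers 9 were detected, with summed scaled signals of 198 to 248 in mock and 175 to 187 after knockdown. Of 10 colon epithelium markers 3 were detected (CDX2, VIL1 and LGALS4), with sums of 0.346 to 0.391 and 0.267 to 0.444, and CDH1 lay at the lower limit of 0.01 on every array.

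HMOX1 encodes the inducible haem oxygenase, which opens the haem ring to biliverdin, carbon monoxide and iron. Its probe (hCG40033.3) read 1.19 and 1.36 in mock and 6.33 and 5.67 after knockdown. The knockdown arrays were both above the mock arrays, and the closest pair of arrays still differed 4.15-fold. The means were 1.28 ± 0.12 and 6.0 ± 0.469 (SD, n = 2 each), a ratio of 4.69 and a log2 change of 2.23. By ratio it stood at place 33 among the kept probes. S/N was 43.8 or more on all 4 arrays, so both groups were well measured.

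GCLM and GCLC encode the modifier and the catalytic subunit of glutamate-cysteine ligase, the first enzyme of glutathione synthesis. GCLM was 2.20 and 3.31 in mock and 5.77 and 6.14 after knockdown. Both knockdown values were above both mock values, but the mock arrays themselves differed by 0.59 on the log2 scale, against a median of 0.22 over all kept probes. The means were 2.76 ± 0.782 and 5.95 ± 0.258, a ratio of 2.16. Without mock replicate 1 the log2 change of GCLM was 0.85, below the 2-fold line, and without mock replicate 2 it was 1.43. The catalytic subunit GCLC differed less, from 0.832 and 0.772 in mock to 0.969 and 0.913, a ratio of 1.17 with no overlap between the groups.

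NQO1 encodes the quinone reductase that is widely used as a readout of NRF2. It was 11.5 and 11.9 in mock and 13.9 and 12.7 after knockdown, a ratio of 1.13, and the closest arrays differed 1.07-fold. TXNRD1, the cytosolic thioredoxin reductase, read 4.91 and 4.31 in mock and 5.12 and 5.09 after knockdown, a ratio of 1.11. Its closest arrays of different groups differed 1.04-fold, while the mock arrays differed from each other by 0.19 on the log2 scale, more than the log2 change of 0.15. The difference between the TXNRD1 group means was thus smaller than the gap between the mock replicates.

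AKR1C1, AKR1C2 and AKR1C3 are hydroxysteroid dehydrogenases that reduce ketosteroids and reactive aldehydes, and AKR1C3 also reduces prostaglandins. AKR1C1 was 1.65 and 1.70 in mock and 1.92 and 1.88 after knockdown, a ratio of 1.14 with replicates within 0.04 log2 units. The brighter AKR1C2 probe read 0.429 and 0.420 in mock and 0.583 and 0.567 after knockdown, a ratio of 1.35. The brighter AKR1C3 probe read 0.507 and 0.571 in mock and 0.729 and 0.658 after knockdown, a ratio of 1.29. On these 3 probes the knockdown arrays were above the mock arrays. The second AKR1C2 probe (0.0330, 0.0291, 0.0223 and 0.0503, mock before knockdown) had S/N over 3 on 1 array, and the second AKR1C3 probe (0.116, 0.0930, 0.0935 and 0.122) on 2. Both were below the filter and their groups overlapped. Averaged by gene ID, as the study's methods do, the AKR1C1 and AKR1C2 probes merged into 1 value with a log2 change of 0.24.

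AKR1B10 and AKR1B15 are reductases related to aldose reductase that act on retinal and on aliphatic aldehydes. AKR1B10 was 0.0594 and 0.0625 in mock and 0.126 and 0.158 after knockdown, a ratio of 2.33. All 4 readings were dim, with a mean S/N of 6.99 in mock and 17.9 after knockdown, but the groups were 2.02-fold apart at the closest. LOC441282 (AKR1B15) read 0.0116 and 0.0189 in mock, where S/N was 1.21 and 2.67, and 0.111 and 0.112 after knockdown, where S/N was 12.8 and 15.1. It was therefore not measured above background in mock, and its change has only a lower bound. With each mock array set to the signal that would give an S/N of 3 there (0.0283 and 0.0210), a limit chosen after the values were seen, it was at least 4.59-fold higher between means of log2 values. The size of both AKR1B changes depended on the processing. With normexp correction of the raw reading, which adds an offset of 50 scanner units, the log2 change of AKR1B10 was 0.30 in place of 1.21, and that of LOC441282 was 1.34 in place of the 2.92 that the mock readings give as they stand. With the lower limit raised to 0.05, above its mock readings, LOC441282 changed by 1.16.

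**Figure D1:**
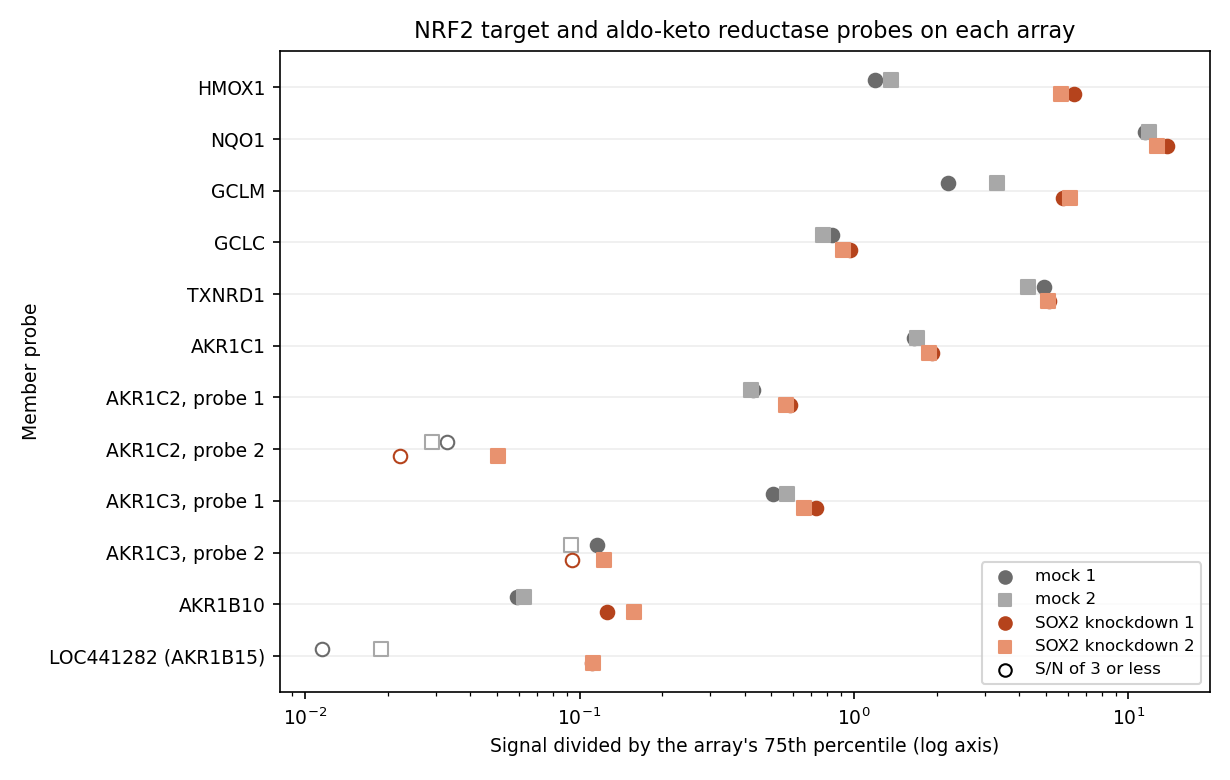
Scaled signal of each of the 12 member probes (rows) on each array, on a log axis. Grey points are mock and red points SOX2 knockdown, circles replicate 1 and squares replicate 2, and open points have an S/N of 3 or less. The wide gaps are at HMOX1, GCLM, AKR1B10 and LOC441282, where LOC441282 is open on both mock arrays, and the second probes of AKR1C2 and AKR1C3 overlap between groups.

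Across the set, 4 of the 10 kept member probes were over 2-fold higher by replicate means and 0 were over 2-fold lower. Of all kept probes 1.57% were over 2-fold higher and 1.04% over 2-fold lower. All 10 kept member probes had both knockdown arrays above both mock arrays, a pattern of 21.2% of all kept probes, while 25.8% lay the other way. Nothing is read from these counts, because the members were selected on this contrast. The median log2 change of the 10 probes was 0.40, against a median of 0.00 over all kept probes. The 9 probes measured in both groups ranged from 0.15 to 2.23, and LOC441282, known by its lower bound, passed the filter through the knockdown arrays alone. The 6 genes under 2-fold are therefore spread between 0.15 and 0.44 on the log2 scale, and AKR1B10 stood at place 204 and GCLM at place 258 by ratio.

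**Figure D2:**
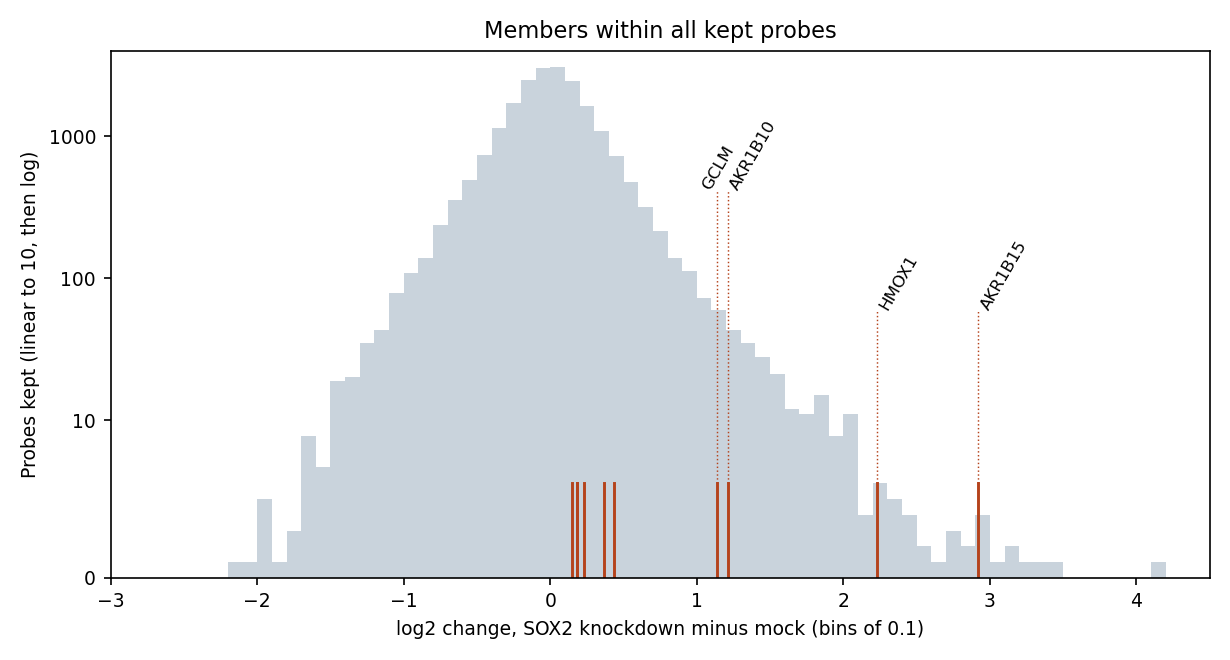
Number of kept probes by log2 change (SOX2 knockdown minus mock) in bins of 0.1, with the 10 kept member probes as red lines. The count axis is linear to 10 and logarithmic above, and the 4 labelled genes lie right of 1. The line of AKR1B15 (LOC441282) is drawn at 2.92, from mock readings that were not above background.

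The regulators of the pathway were read from a list of 13 genes, of which 12 were on the array. NFE2L2, which encodes NRF2, was 6.04 and 6.62 in mock and 8.13 and 8.11 after knockdown, a ratio of 1.28, with an adjusted p of 0.281 by limma. BACH1 was 3.29 and 3.01 in mock and 2.25 and 2.22 after knockdown, a ratio of 0.71, with an adjusted p of 0.19. Neither overlapped between groups, and neither passed the test at 0.05. Of all kept probes, 21.2% had both knockdown arrays above both mock arrays and 25.8% had them below. Of the 14 kept probes of this list, 10 had them above and 2 below. Among those above, the BACH2 probe and the second MAFK probe passed the S/N filter through the knockdown arrays alone. KEAP1 had a ratio of 0.92 with overlapping groups, and SQSTM1, an adaptor that binds KEAP1, had a ratio of 1.36. Of the small MAF genes, MAFF had a ratio of 1.32 and the brighter probes of MAFG and MAFK 1.11 and 1.23. The second MAFK probe read 0.0182 and 0.0131 in mock, not above an S/N of 3, and 0.0445 and 0.0252 after knockdown (adjusted p = 0.228 by limma). With each mock array at its signal for an S/N of 3 (0.0196 and 0.0387), the means of log2 values differed 1.22-fold. The limit for mock replicate 2 lay above SOX2 knockdown replicate 2, so the direction is not secured for this probe.

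The lists of regulators, glutathione, thioredoxin, NADPH supply, haem and iron, detoxification and other aldo-keto reductases held 106 probes, 98 of them kept, and no member. By limma with Benjamini-Hochberg adjustment over all kept probes, 0 of the 98 passed an adjusted p of 0.05 in either direction, and of all kept probes 0% passed. With the arrays scaled to their median, not scaled further, or in the authors' ratios, 6 of the list probes passed, all with a higher mean after knockdown. They were 1 of MAFK, 2 of MGST1, and 1 each of ABCC3, OSGIN1 and AKR1D1. The MAFK and AKR1D1 probes had passed the S/N filter through the knockdown arrays alone, and the AKR1D1 groups overlapped. There eBayes took a common spread for all probes, so the spread of a single probe did not count. In these 3 settings 3.57% to 3.89% of all kept probes passed. With a trend in eBayes 1.35% did, among them ABCC3 (adjusted p = 0.0363 by limma) and OSGIN1 (adjusted p = 0.0241 by limma). At an unadjusted p of 0.05, 15 of the 98 were higher and 9 lower, against 7.9% and 9.16% of all kept probes. At an adjusted p of 0.1 the count was 1 of 98, OSGIN1, against 1.13% of all kept probes. It was 0 with the replicate block, normexp, a floor of 0.05 or no S/N filter. The list count was 5 of 93 where all 4 arrays had S/N over 3 (492 of 19461 kept probes). It was 7 of 98 with median scaling, no further scaling or the authors' ratios (999 to 1079 of 21256). With a trend it was 10 of 98 (1016 of 21256). By replicate means 4 of the 98 were over 2-fold higher, the dim MAFK probe among them, and 0 over 2-fold lower. The knockdown arrays were both above the mock arrays for 37 of the 98 probes and both below for 24, against 21.2% and 25.8% of all kept probes. The same shares are the background for the counts of each list below. Among the probes above, those of BACH2 and AKR1C8 and the second of MAFK and AKR7A2 were kept through the knockdown arrays alone. The median log2 change of the 98 was 0.05.

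OSGIN1, an oxidative stress-induced growth inhibitor listed on the array as OKL38, was 0.338 and 0.358 in mock and 0.911 and 0.926 after knockdown. Its ratio of 2.64 came with an adjusted p of 0.0703 by limma. ABCC3, an exporter of glucuronide and bile acid conjugates, had probes that disagreed. The dimmer read 0.538 and 0.699 in mock and 1.49 on both knockdown arrays, a ratio of 2.41 (adjusted p = 0.101 by limma), and the brighter had a ratio of 1.06 with overlapping groups. MGST1, a microsomal glutathione transferase, was higher on both of its probes. One read 0.300 and 0.339 in mock and 0.659 and 0.584 after knockdown, a ratio of 1.95 (adjusted p = 0.107 by limma), and the other had a ratio of 2.13 (adjusted p = 0.106 by limma).

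The glutathione list had 5 of 21 kept probes (23.8%) with the knockdown arrays above and 6 (28.6%) with them below, near the shares of all kept probes, and a median log2 change of -0.16. SLC7A11, the cystine importer, was 0.112 on both mock arrays and 0.165 and 0.223 after knockdown, a ratio of 1.73 (adjusted p = 0.175 by limma). GSTA4 and MGST3, glutathione transferases, lay the other way, with ratios of 0.674 for GSTA4 and 0.688 for the brighter MGST3 probe. In the thioredoxin list the counts were 4 above (28.6%) and 6 below (42.9%) of 14. SRXN1, which repairs overoxidised peroxiredoxins, had a ratio of 1.64, TXN one of 1.04, and the probes of TXNRD3 gave 1.31 and 0.585. The peroxiredoxins PRDX1 to PRDX6 had ratios of 0.699 to 0.934.

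In the NADPH list 4 of 11 probes had the knockdown arrays above and 3 below. The 4 probes of ME1, malic enzyme, gave ratios from 0.86 to 1.49. The haem and iron list had 8 above and 2 below of 14 kept probes, 7 of which belong to FTL and FTH1. HMOX2, the constitutive haem oxygenase, had a ratio of 0.914 with overlapping groups, beside the 4.69 of HMOX1. BLVRA, which reduces biliverdin, had a ratio of 0.733. BLVRB had one of 1.41, but its mock arrays differed from each other by 0.92 on the log2 scale, more than its log2 change of 0.57. The ferritin light chain FTL had ratios of 1.25 to 1.27 on its 3 probes and the heavy chain FTH1 1.04 to 1.19 on its 4. The brightest FTL and FTH1 probes carried a flag found on the brightest signals of each array; its meaning is not given in the sources used here. In the detoxification list NQO2, a quinone reductase related to NQO1, had a ratio of 1.56, and CBR1 and CBR3, carbonyl reductases, had 0.96 and 0.817.

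Of the other aldo-keto reductases, 10 probes were kept, 3 with the knockdown arrays above and 3 below, and none was over 2-fold. Among those above, the AKR1C8 probe and the second AKR7A2 probe were kept through the knockdown arrays alone. AKR1B1, aldose reductase itself, was 9.62 and 9.89 in mock and 12.9 and 13.4 after knockdown, a ratio of 1.35 (adjusted p = 0.212 by limma). AKR1A1, aldehyde reductase, had a ratio of 0.884, and AKR1C4 one of 1.09 with overlapping groups. AKR1D1, which reduces the steroid A ring, was 0.0743 and at the lower limit of 0.01 in mock and 0.0579 and 0.0789 after knockdown, so its groups overlapped.

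**Figure D3:**
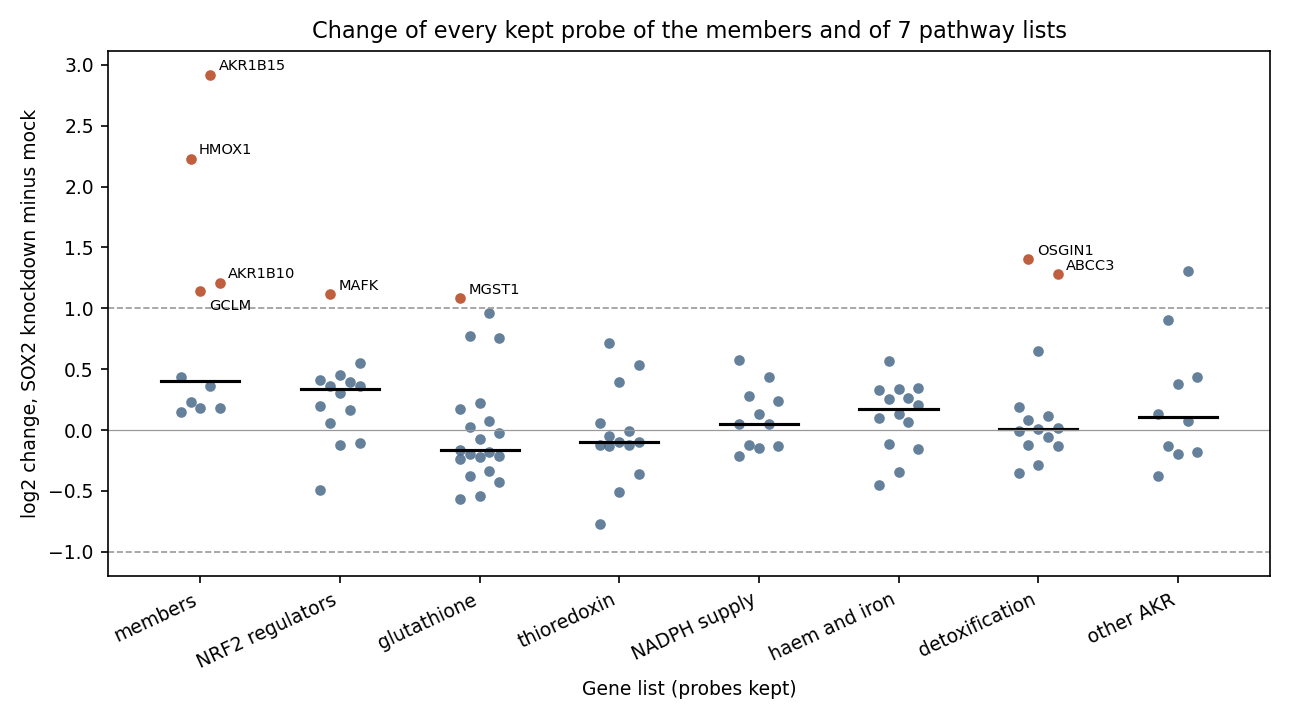
Log2 change (SOX2 knockdown minus mock) of each kept probe of the members and of the 7 pathway lists, with a black bar at each list's median and dashed lines at 2-fold. Red points are over 2-fold by replicate means. The AKR1D1 point at 1.31 is not red because 1 mock array was at the lower limit, which lowers its log2 mean more than its linear mean.

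The probes with a symbol and S/N over 3 on all 4 arrays that lay nearest to 3 of the members were found by the Euclidean distance of the 4 centred log2 values. Among 15874 probes, those nearest to HMOX1 were NRG1, a ligand of the ERBB receptors, at a distance of 0.132, DHRS2, a short-chain dehydrogenase, at 0.134, and SH3RF2 at 0.195. Their log2 changes were 2.31, 2.29 and 2.39. Nearest to AKR1B10 were HIST1H1E, a linker histone, at 0.0553, SAA2, a serum amyloid A protein, at 0.117, and MGST1 at 0.149. Nearest to AKR1C1 were GMEB1 at 0.0122, RP1-112K5.2 at 0.0162 and LOC339745 at 0.0184. With 4 arrays many probes share such a pattern, and the likeness is a description only.

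Under 15 alternatives of scaling, background, floor, filter and arrays left out, the log2 change of each of the 10 kept member probes stayed above 0. All 10 had both knockdown arrays above both mock arrays, so leaving out an array could not change the sign. The S/N filters alter which probes are kept and not their values. The members were also selected on this contrast, so the constant sign is a description only. LOC441282 did not pass S/N over 3 on all 4 arrays, and with gene ID means AKR1C1 and AKR1C2 were 1 merged value. The 2 probes below the filter, whose groups overlapped, each changed sign under 2 of the 15. HMOX1 ranged from 2.13 to 2.33 on the log2 scale over all of them.

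**Figure D4:**
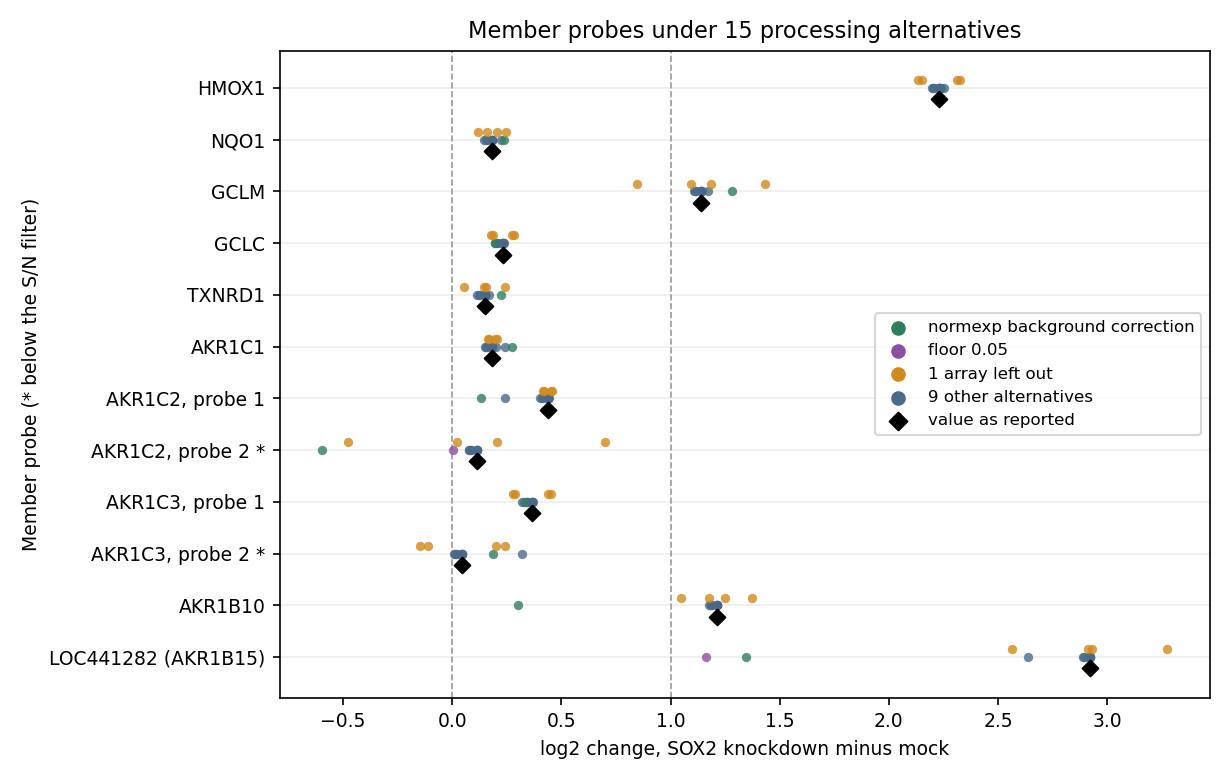
Log2 change of each member probe (rows) as reported (black diamonds) and under 15 alternatives (coloured points), with dashed lines at 0 and at 2-fold. HMOX1 stays between 2.13 and 2.33, GCLM crosses the 2-fold line where mock replicate 1 is left out, and AKR1B10 falls to 0.30 under normexp.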

How the data were processed

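The deposited scanner files of 4 single-colour Applied Biosystems arrays give, for each probe, intensity columns (raw reading, assay-normalized signal with its error, normalized signal), a signal-to-noise score and flags, per the file headers. The second deposited table holds the authors' linear ratio per probe and array, relative to the probe's median, and served as an alternative only. The meaning of the flags and the scanner software are not given in the sources used here. Groups came from the source names and replicate numbers from the titles.

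Control features and 210 probes flagged 5000 or higher on any array were removed. Normalized signals were divided by the 75th percentile of each array, floored at 0.01 and log2 transformed. Probes with S/N over 3 on both arrays of a group were kept. The study's methods use this percentile, an S/N of 3 and a 2-fold cutoff of means without a test, but average probes by gene ID, whereas single probes were kept apart here. limma 3.58.1 in R 4.3.3 (lmFit and eBayes, two-sided, no block) was fitted across all kept probes with Benjamini-Hochberg adjustment, after it was tested on simulated data, and Python 3.11 read the promoters.

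The members and gene lists were chosen with earlier results of these data known. Every member probe is given. Of the lists, fixed names (NFE2L2, KEAP1, BACH1, SLC7A11, SRXN1, TXN, FTL, FTH1, AKR1B1, AKR1A1 and AKR1D1) and every kept probe over 2-fold are named, and other list genes were named after their values were seen. One further gene of the fixed names is not reported here. Array symbols were matched by symbol, RefSeq accession or, where neither gave a probe, synonym, and 80 of 83 list genes were found. Replicate numbers do not pair the samples by the labels, and the deviations of same-numbered arrays correlated at -0.48 over the kept probes. The median absolute log2 difference was 0.223 between the mock arrays and 0.166 between the knockdown arrays. Between arrays of different groups it was 0.207 to 0.324. It was lowest for mock replicate 1 with SOX2 knockdown replicate 2, which were thus nearer than the 2 mock arrays.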

Additional observations from a re-analysis of the deposited data

How the results depend on the processing

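Over 15 alternatives the log2 change of each of the 10 kept member probes stayed above 0, though LOC441282 was not kept with S/N over 3 on all arrays and gene ID means merged AKR1C1 with AKR1C2. Leaving out an array or changing the S/N filter could not change these signs, as each probe had both knockdown arrays above both mock arrays. The count of member probes over 2-fold was 4 under most settings, 3 without mock replicate 1 (3 to 4 over the arrays left out), 3 with normexp, 3 with S/N over 3 on all 4 arrays and 2 at a 3-fold cutoff. Pathway list probes past 2-fold were 4, all higher, and 2 with gene ID means, 1 with normexp and 0 at 3-fold. Over the arrays left out they were 4 to 7, the 7 without mock replicate 1. At 1.5-fold they were 12 (11 higher and 1 lower), and with no S/N filter 6 (4 higher and 2 lower). Of all kept probes 554 were past 2-fold, against 220 with normexp, 363 with a floor of 0.05, 1373 with no S/N filter, 302 where all 4 arrays had S/N over 3, 2234 at 1.5-fold, 119 at 3-fold and 782 to 1192 over the arrays left out.

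limma called 0 probes at an adjusted p of 0.05 (3626 at an unadjusted p of 0.05), 241 at 0.1, 287 with a trend in eBayes, 5 where all 4 arrays had S/N over 3, 0 with any array left out, and 826 with median scaling, 776 with no further scaling and 758 in the authors' ratios. In the last 3 settings eBayes took 1 common spread for all probes (infinite prior degrees of freedom, against 2.44). There 6 list probes passed: MAFK, both of MGST1, ABCC3, OSGIN1 and AKR1D1. Of these, the MAFK and AKR1D1 probes were kept through the knockdown arrays alone. With the replicate block limma called 0 probes. Crossed numbers as a block, chosen after the data were seen, called 0 at 0.05 and 2105 at 0.1. Of the 98 list probes, 1 passed 0.1, and 10 with a trend, 12 with crossed numbers and 0 with the replicate block. The trend called 1016 of all 21256 kept probes at 0.1. Where all 4 arrays had S/N over 3, 5 of 93 list probes passed 0.1 (492 of 19461 kept probes). With median scaling, no further scaling or the authors' ratios, 7 of 98 list probes did (999 to 1079 of 21256 kept probes). Leaving out list probes with several symbols, also added later, left 4 over 2-fold. Low signal limits LOC441282 and the second AKR1C2 and AKR1C3 probes, which lie near background.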
